A study of Drosophila melanogaster with 12 samples.

Results

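The 8 serine protease genes described here are Jon66Ci, Jon99Fi, Jon25Bi, Jon25Bii and Jon44E of the Jonah family, the trypsin genes lambdaTry and thetaTry, and Ser12. They were chosen by symbol, and each was measured by 1 Affymetrix probe set annotated to that symbol alone, so 8 of the 10844 genes that carry a single symbol on the array are described. The choice was made with the difference between S284Y and wild-type (WT) flies known, so that difference is given as a description, without a test.

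Serine proteases of this group share a catalytic serine, histidine and aspartate and cut peptide bonds. Jonah proteases and trypsins are made mostly in the fly midgut, whose enterocytes secrete them into the gut lumen to digest dietary protein. Trypsins cut after basic residues, while Jonah proteases resemble chymotrypsins. U2AF50, the large subunit of the splicing factor U2AF, binds the polypyrimidine tract ahead of the 3′ splice site of introns.

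Total RNA of whole Drosophila melanogaster was hybridised to 12 arrays, each from a pool of 5 males and 5 females. Flies were WT or carried the S284Y mutation in dU2AF50 and were grown at 25C, the permissive temperature, or 30C, the restrictive temperature, giving 4 groups of 3 arrays: WT 25C, S284Y 25C, WT 30C and S284Y 30C. The labels give neither the flies' age, nor the strain or how the mutation was introduced, nor whether replicates came from separate cultures, so p-values measure only the spread between these samples, which may be technical. In the 3 WT 30C arrays the description field names 25C, against the title, and for array 1 it also has the permissive wording. The groups follow the titles, and a fit with array 1 moved to WT 25C is given where it changes a call.

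Arrays 2 and 3 of S284Y 25C stood apart, with median correlations to the other arrays of 0.870 and 0.842, against 0.924 to 0.939 for the other 10. Because RNA came from whole animals, fewer gut cells and less RNA per gut cell cannot be told apart. Of the enterocyte markers, 6 were measured, and none was at 0. Their summed signal ran from 64728 to 89935 in WT 25C, 86514 to 221023 in S284Y 25C, 44853 to 59986 in WT 30C and 84264 to 86815 in S284Y 30C. These sums are carried mostly by alphaTry and betaTry, which are themselves trypsin genes. Among the other 4 at 30C, the brush-border gene mex1 (log2 fold change of S284Y against WT -1.15, limma adjusted p = 0.190), Vha100-4 (-0.90), Amy-d (-0.15) and the transcription factor gene nub (-1.30) had negative values that did not pass the test. The 4 genes listed as fat body markers summed to 14028 to 16326 in WT 30C and 8055 to 9639 in S284Y 30C. Of the 4, 3 (Lsp2, Lsd-1 and fat-spondin) were lower in S284Y at 30C, where 1.17% of all probe sets were. The other one, Fad2, may not mark the fat body, and its signals are part of these sums (3433 to 3727 in WT 30C, 4775 to 5876 in S284Y 30C). Fad2 was higher in S284Y at 25C (0.97, limma adjusted p = 0.0131) and had a value of 0.58 at 30C (limma adjusted p = 0.117). Lsp2 was lower in S284Y at 25C as well (-1.66, limma adjusted p = 0.00569). At 25C the 4 summed to 18057 to 22422 in WT and 14459 to 15864 in S284Y. At 30C, enteroendocrine markers (4 measured) summed to 1489 to 1823 in WT and 848 to 1141 in S284Y, accessory gland markers (5) to 34326 to 41275 and 17464 to 33021, and ovary and yolk markers (5) to 64525 to 115675 and 148496 to 196032. Of the last 5, the yolk genes Yp1, Yp2 and Yp3 and the chorion gene Cp36 had positive values that did not pass, and Femcoat was lower in S284Y (-1.15, limma adjusted p = 0.0117). At 25C the enteroendocrine sums ran from 1523 to 1959 in WT and 1003 to 2022 in S284Y. The accessory gland sums there ran from 37420 to 56064 in WT and 35203 to 95771 in S284Y. Ovary and yolk sums at 25C ran from 124367 to 197452 in WT and 161403 to 718268 in S284Y. In S284Y 25C the highest Yp1 signal was on array 2 (241444) and that of the accessory gland gene SP on array 3 (19409). The part of such differences in the protease values was not tested.

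Over the 4 groups the proteases followed 3 courses. Jon66Ci had higher signals in S284Y than in WT at both temperatures, Ser12 had lower signals at both, and the other 6 lay below WT at 30C only. Signals are the deposited linear intensities. Fold changes come from log2(signal + 16) in one limma fit of the 4 groups, with their standard error (SE), and the 16 makes changes of dim probe sets look smaller than the ratio of the signals.

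**Figure D1:**
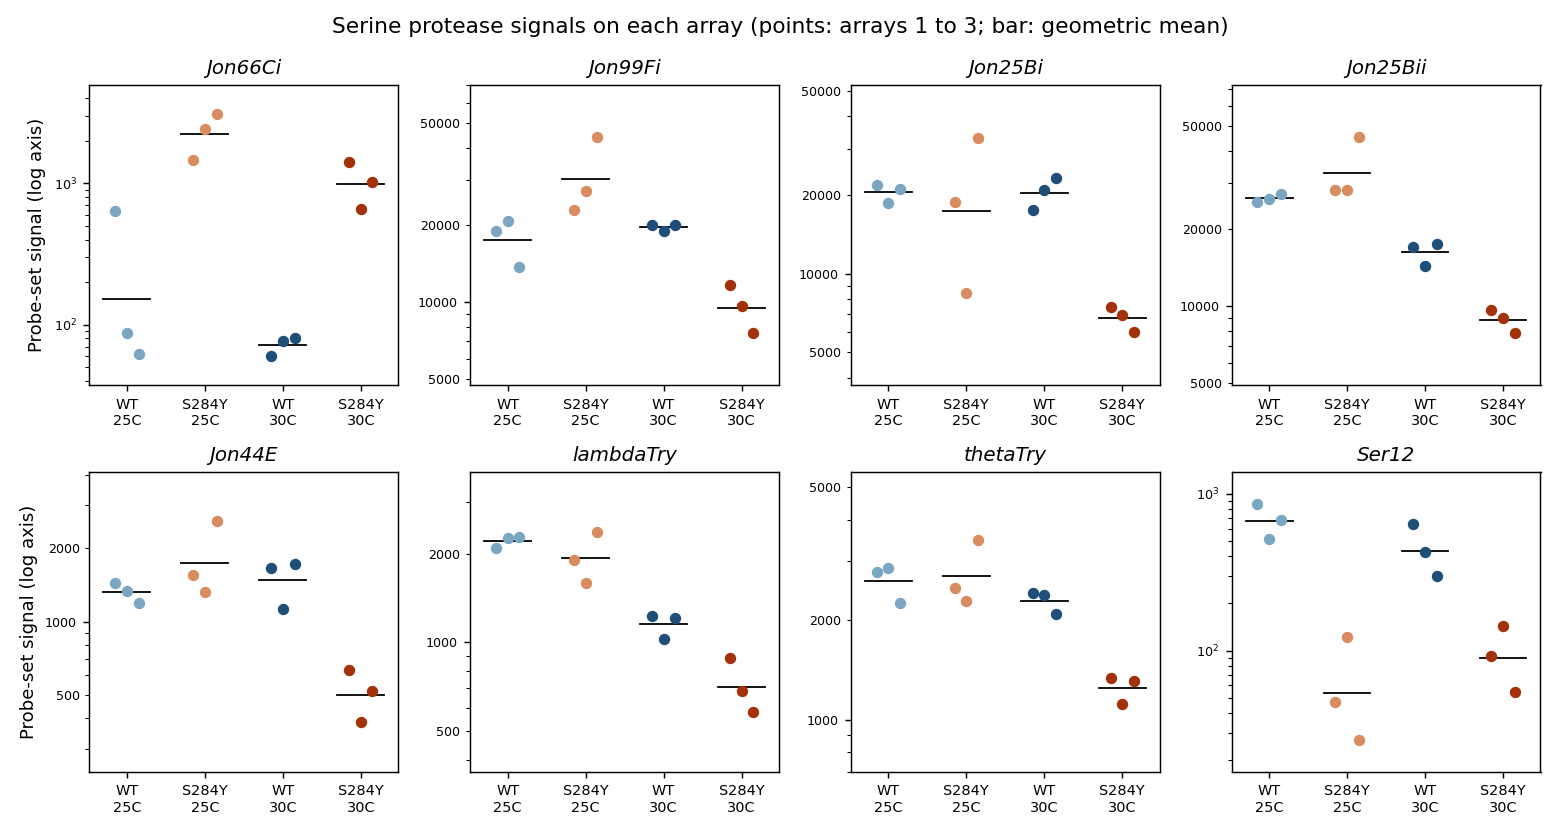
Signal of each of the 8 probe sets on every array, on a log axis that differs between panels, by group; points are arrays 1 to 3 from left to right and the bar is their geometric mean. Jon66Ci is high and Ser12 low in S284Y at both temperatures, and the other 6 are lowest in S284Y at 30C.

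Jon66Ci, a Jonah protease gene, was the one of the 8 with higher signals in S284Y at both temperatures. In WT 25C its signals were 637.0, 87.0 and 62.5 on arrays 1, 2 and 3, and in S284Y 25C they were 1451, 2418 and 3097. In WT 30C they were 60, 77.4 and 80.8, and in S284Y 30C 1417, 656 and 1021. The groups did not overlap at either temperature, although array 1 of WT 25C lay far above the other WT arrays. The mean was 262 ± 325 (SD, n = 3) in WT and 2322 ± 828 in S284Y at 25C, and 72.7 ± 11.2 and 1031 ± 380 at 30C. The fitted log2 fold changes were 3.68 ± 0.639 (SE) at 25C and 3.50 ± 0.639 at 30C, a difference of -0.18 ± 0.904 between the temperatures. Without array 1 of WT 25C the value at 25C was 4.63 and the difference between the temperatures -1.13.

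Ser12, another serine protease gene, went the other way. Its signals were 864, 514 and 682 in WT 25C and 47.2, 123 and 27.0 in S284Y 25C. At 30C they were 644, 426 and 298 in WT and 91.9, 144 and 54.1 in S284Y. All 6 S284Y signals lay below all 6 WT signals. The mean was 687 ± 175 (SD, n = 3) against 65.6 ± 50.4 at 25C and 456 ± 175 against 96.6 ± 45.0 at 30C. The log2 fold changes were -3.25 ± 0.497 (SE) at 25C and -2.08 ± 0.497 at 30C. The S284Y signals at 25C reach down to the size of the added 16, so the value at 25C depended on it (-3.61 with 1 added, -2.58 with 64 added).

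The 4 remaining Jonah genes had similar signals in both genotypes at 25C, or somewhat higher ones in S284Y, and lower ones in S284Y at 30C. Jon44E had signals of 1446, 1339 and 1188 in WT 25C and 1555, 1324 and 2581 in S284Y 25C. At 30C they were 1655, 1129 and 1727 in WT and 631, 386 and 516 in S284Y. The S284Y 30C arrays therefore lay below every other array, while the other 3 groups overlapped. The log2 fold change of S284Y against WT was 0.40 ± 0.274 (SE) at 25C and -1.53 ± 0.274 at 30C.

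Jon99Fi had signals of 18851, 20594 and 13677 in WT 25C and 22875, 27157 and 43944 in S284Y 25C. At 30C they were 19929, 18979 and 20017 in WT and 11664, 9596 and 7568 in S284Y. S284Y was thus above WT on every array at 25C and below it on every array at 30C, with log2 fold changes of 0.79 ± 0.255 (SE) and -1.05 ± 0.255. Without arrays 2 and 3 of S284Y 25C the first value was 0.39.

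Jon25Bii had the same order. Its signals were 25411, 26004 and 27176 in WT 25C and 28178, 28168 and 45245 in S284Y 25C, and at 30C they were 16923, 14297 and 17467 in WT and 9681, 8947 and 7876 in S284Y. The margin at 25C was narrow, with 2 of the 3 S284Y arrays close to the highest WT array. The log2 fold changes were 0.33 ± 0.204 (SE) at 25C and -0.88 ± 0.204 at 30C. Without array 3 of S284Y 25C, whose signal was the highest, the value at 25C was 0.11.

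Jon25Bi, the neighbour of Jon25Bii on chromosome arm 2L, had signals of 21775, 18666 and 21065 in WT 25C. In S284Y 25C they were 18842, 8404 and 32952, so that arrays 2 and 3 lay on either side of WT. At 30C WT had 17588, 20816 and 23244 and S284Y had 7429, 6924 and 5994, all below WT. The log2 fold change was -0.24 ± 0.359 (SE) at 25C, where it turned to 0.28 without array 2 of S284Y 25C, and -1.59 ± 0.359 at 30C.

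At 30C the trypsin genes had differences between genotypes close to that of Jon25Bii or smaller. For thetaTry the signals were 2775, 2856 and 2240 in WT 25C, 2494, 2283 and 3482 in S284Y 25C, 2401, 2372 and 2080 in WT 30C and 1338, 1118 and 1305 in S284Y 30C. The S284Y 30C arrays again lay below all others. The log2 fold changes of S284Y against WT were 0.05 ± 0.187 (SE) at 25C and -0.86 ± 0.187 at 30C. For lambdaTry the signals were 2098, 2261 and 2284 in WT 25C, 1908, 1595 and 2371 in S284Y 25C, 1226, 1031 and 1208 in WT 30C and 885, 683 and 583 in S284Y 30C. Its signals fell into 3 levels, with both groups at 25C highest, WT 30C between and S284Y 30C lowest. The log2 fold changes were -0.19 ± 0.202 (SE) at 25C and -0.69 ± 0.202 at 30C, the smallest of the 8 at 30C apart from sign.

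Counted over the 8, all 3 S284Y signals were above all 3 WT signals for 3 genes at 25C (Jon66Ci, Jon99Fi and Jon25Bii; 7.53% of all probe sets) and below for 1 (Ser12; 7.15%). At 30C they were above for 1 gene (14.8% of all probe sets) and below for 7 (13.3%). These counts follow from how the genes were chosen. The median log2 fold change of the 8 was 0.19 at 25C and -0.96 at 30C, beside 0.00396 and 0.03 for all probe sets.

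**Figure D2:**
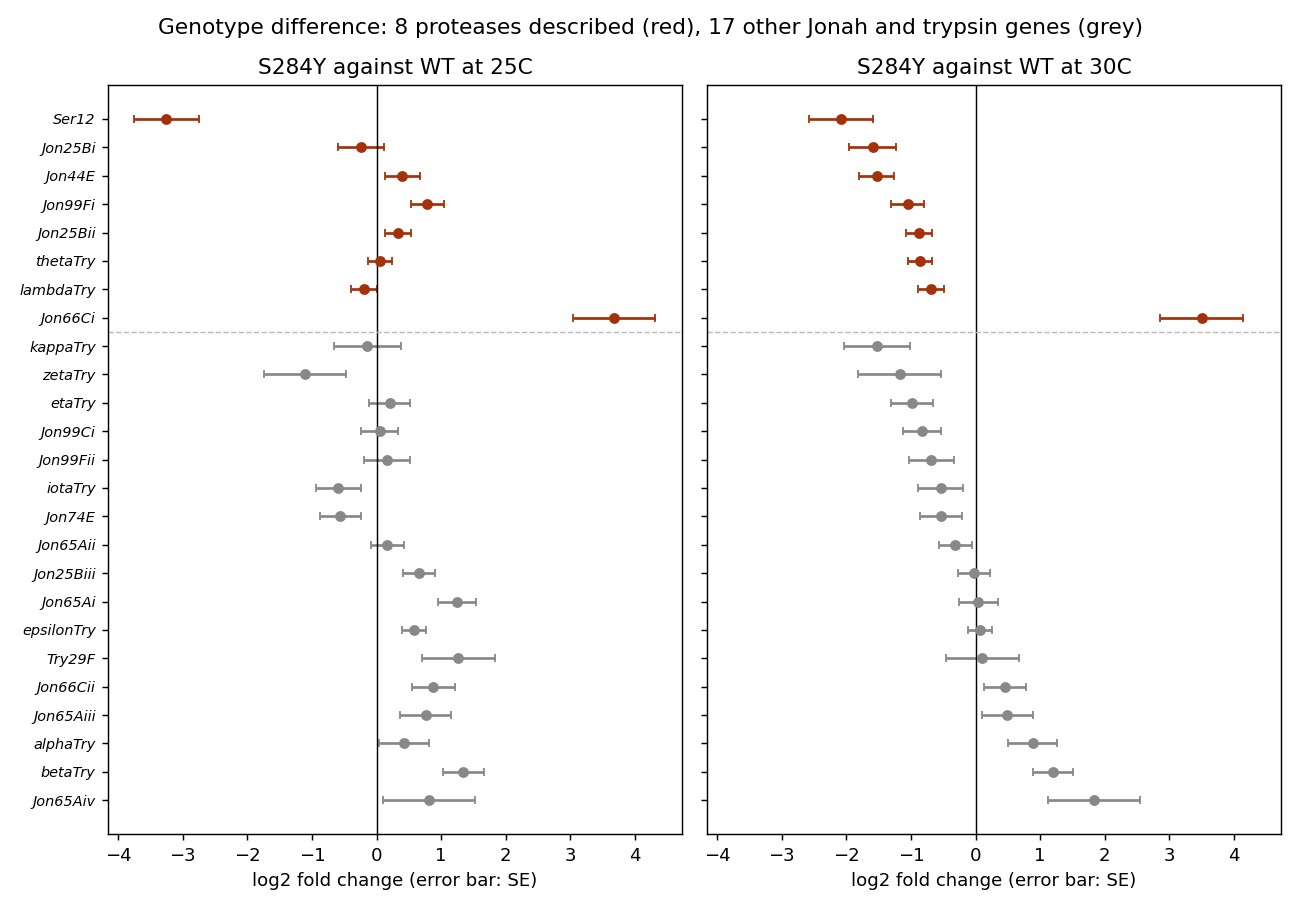
Log2 fold change of S284Y against WT with its SE at 25C (left) and 30C (right) for the 8 proteases (red, above the dashed line) and the 17 other Jonah and trypsin genes (grey), each set ordered by its value at 30C. Jon66Ci is high and Ser12 low in both panels, and the other 6 red points move from between -0.24 and 0.79 at 25C to between -1.59 and -0.69 at 30C.

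The comparison of 30C against 25C averaged over both genotypes is orthogonal to both differences between genotypes, which were known at the choice. A gene low only in S284Y 30C, such as Jon44E or Jon99Fi, also has a lower average. The choice may therefore have favoured falls in this comparison. In it 5 of the 8 genes were lower at 30C and 0 higher, where 1.64% of all probe sets were lower and 0.895% higher (2.53% in either direction; limma, Benjamini-Hochberg adjusted p under 0.05 over 13966 probe sets). All 8 values were negative, with a median log2 fold change of -0.78 beside -0.05 for all probe sets. Jon25Bii fell by 1.30 ± 0.144 (SE; limma adjusted p = 0.00103) and lambdaTry by 1.18 ± 0.143 (limma adjusted p = 0.0018). thetaTry (-0.65 ± 0.132, limma adjusted p = 0.0284), Jon44E (-0.80 ± 0.194, limma adjusted p = 0.0484) and Jon99Fi (-0.75 ± 0.180, limma adjusted p = 0.0484) passed closer to the threshold. Jon66Ci (-1.07 ± 0.452, limma adjusted p = 0.186), Jon25Bi (-0.68 ± 0.254, limma adjusted p = 0.142) and Ser12 (-0.02 ± 0.351, limma adjusted p = 0.974) did not pass.

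Of these calls, that of Jon25Bii held in all 21 alternatives (adjusted p 4.23e-05 to 0.0466) and that of lambdaTry in 20 of 21, the exception being WT 30C array 1 moved to 25C (adjusted p = 0.0554). Those of Jon99Fi, Jon44E and thetaTry were lost in 16, 13 and 12 of the 21, so that 1 to 5 of the 8 genes passed, with 2 under the replicate block, median centring or eBayes without trend and on leaving out most single arrays. Without arrays 2 and 3 of S284Y 25C, Jon25Bi passed (-0.74, adjusted p = 0.00364) and Jon99Fi did not (-0.55, adjusted p = 0.0530).

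The average hides a contrast between genotypes, which is described here without a test because these values share arrays with the differences used in the choice. In WT, Jon25Bii (log2 fold change of 30C against 25C -0.70 ± 0.204, SE) and lambdaTry (-0.93 ± 0.202) were lower at 30C with no overlap between the temperatures. The other 6 overlapped, with values of 0.17 for Jon99Fi, 0.16 for Jon44E, -0.0029 for Jon25Bi, -0.19 for thetaTry, -0.61 for Ser12 and -0.98 for Jon66Ci. That of Jon66Ci was -0.0272 without array 1 of WT 25C. In S284Y, 7 of the 8 were lower at 30C with no overlap, from -1.10 ± 0.187 for thetaTry to -1.90 ± 0.204 for Jon25Bii, and only Ser12 (0.56 ± 0.497) had a positive value. Among all probe sets, 12.2% were lower at 30C with no overlap in WT and 13.4% in S284Y. For Jon66Ci the S284Y groups were separated narrowly, by 1451 against 1417. Jon99Fi and Jon44E, which passed in the average, thus had negative values in S284Y (-1.67 and -1.77) and small positive ones in WT.

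The genotype difference at 30C minus that at 25C was -1.93 ± 0.387 (SE) for Jon44E, -1.84 ± 0.361 for Jon99Fi, -1.36 ± 0.508 for Jon25Bi, -1.21 ± 0.289 for Jon25Bii, -0.91 ± 0.264 for thetaTry, -0.50 ± 0.286 for lambdaTry and 1.17 ± 0.702 for Ser12. Leaving out arrays 2 and 3 of S284Y 25C, an alternative chosen after seeing the data for these values, gave -1.76, -1.44, -1.47, -0.98, -0.79, -0.48 and 1.36 in the same order. That of Jon66Ci went from -0.18 to 0.43.

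**Figure D3:**
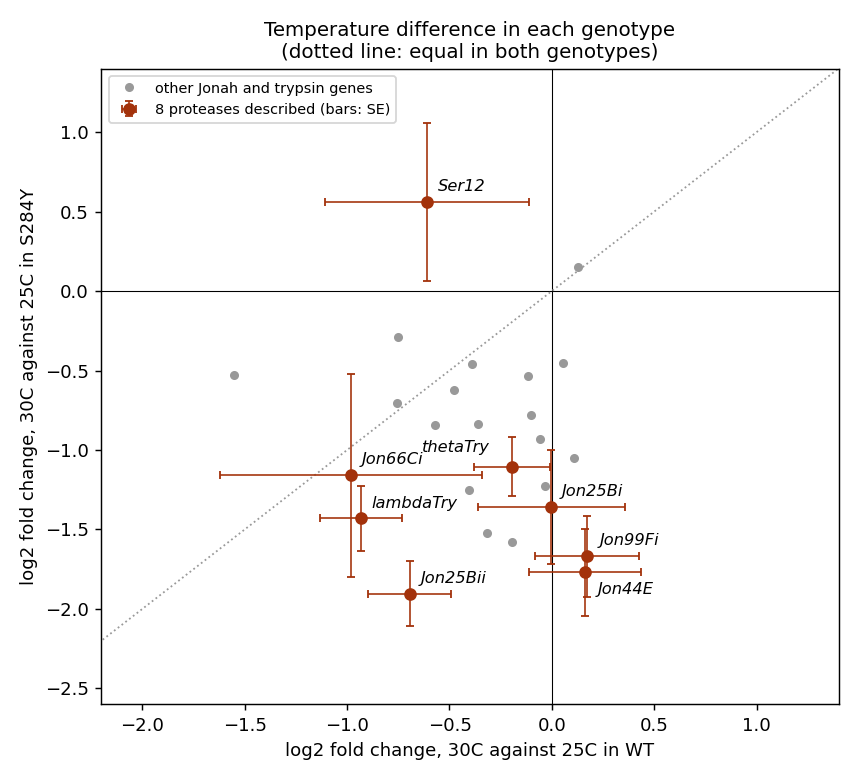
Log2 fold change of 30C against 25C in WT (horizontal) and in S284Y (vertical) for the 8 proteases (red, bars are SE) and the 17 other Jonah and trypsin genes (grey); the dotted line marks equal values. Jon99Fi, Jon44E, Jon25Bi and thetaTry lie near 0 in WT and between -1.77 and -1.10 in S284Y, lambdaTry and Jon25Bii are negative in both, and Ser12 alone of the 8 is above the horizontal axis.

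Over the 12 arrays the log2 signals of the 6 genes that were low in S284Y at 30C were alike, with Pearson r from 0.72 (Jon99Fi with Jon25Bi) to 0.95 (Jon25Bii with lambdaTry) and a median of 0.87 over 15 pairs. Without arrays 2 and 3 of S284Y 25C, and with group means kept, r ran from 0.73 to 0.98. After each group's mean was taken off over all 12 arrays, r ran from 0.48 to 0.84 with a median of 0.69. Jon66Ci and Ser12 were opposed (r = -0.81 over 12 arrays, 0.06 with group means taken off). The arrays share scaling and the same pools of flies, and the 6 were grouped after their values were seen, so these are descriptions.

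**Figure D4:**
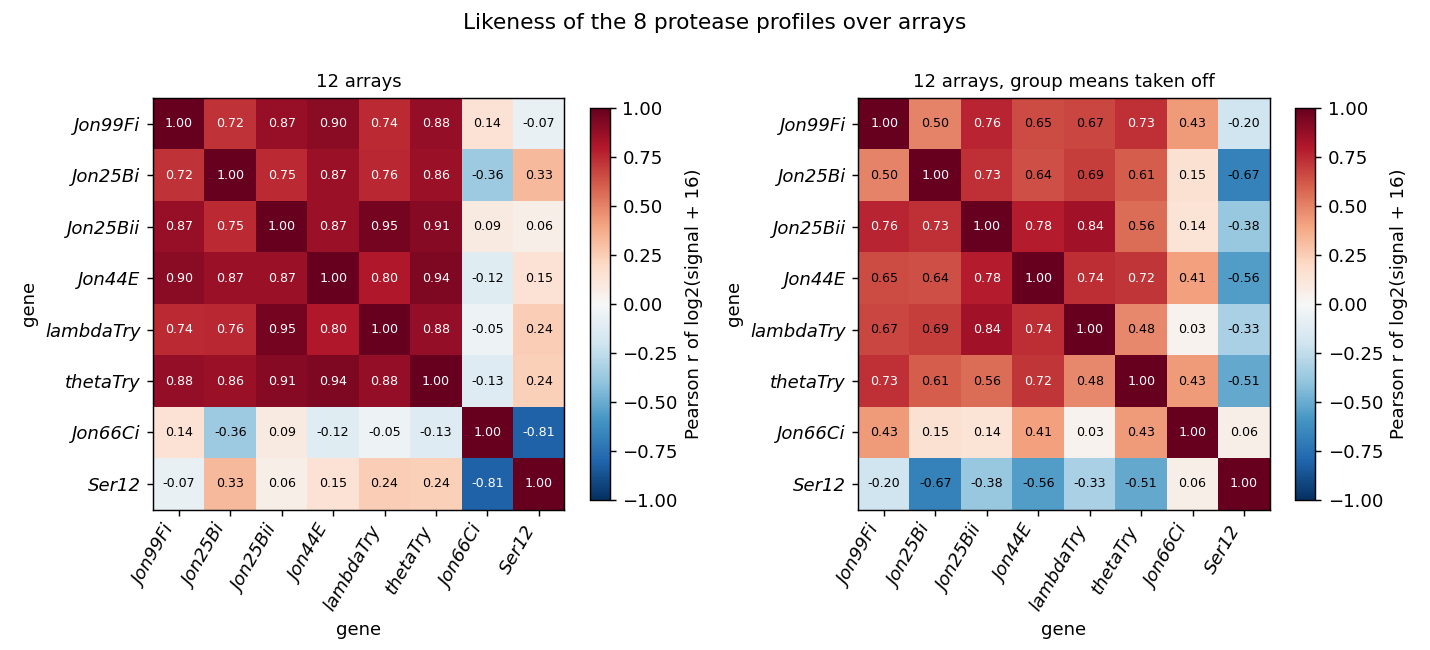
Pearson r between the log2(signal + 16) values of each pair of the 8 genes over 12 arrays (left) and over the same arrays with each group's mean taken off (right). The block of 6 genes has r of 0.72 to 0.95 on the left and 0.48 to 0.84 on the right, while Jon66Ci and Ser12 lie outside it.

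Genes with the most similar profiles over the 12 arrays were named by the highest Pearson r, 2 for each protease. For Jon66Ci they were Ssdp (r = 0.930) and the gut lysozyme gene LysC (r = 0.922, a probe set of a type shared within a gene family). The mean signal of LysC was 2207 in WT 25C, 59066 in S284Y 25C, 1024 in WT 30C and 32116 in S284Y 30C. That of Ssdp differed far less, with 2859, 3538, 2583 and 3270 in the same order, as r does not measure the size of a change. For Ser12 they were Samtor (r = 0.925) and the serpin gene Spn88Eb (r = 0.918), which was 1654 in WT 25C against 615 in S284Y 25C and 1327 against 457 at 30C. Jon25Bi was closest to the trypsin gene kappaTry (r = 0.964) and to Scp2 (r = 0.964). Jon25Bii was closest to the carbonic anhydrase gene CAH1 (r = 0.981) and CG4020 (r = 0.973), and Jon99Fi to CG15423 (r = 0.944) and CG6421 (r = 0.937). Jon44E was closest to the odorant-binding protein gene Obp18a (r = 0.941) and CG1304 (r = 0.931), lambdaTry to Ldsdh1 (r = 0.982) and the glutathione transferase gene GstE12 (r = 0.977), and thetaTry to the malic enzyme gene Men (r = 0.970) and CG3597 (r = 0.968). With 12 arrays and 4 groups, high values of r arise for many genes that share a group pattern.

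Several of the 8 lie beside a relative on the chromosome (gene order of RefSeq, Release 6), and the relatives differed. Jon66Cii, next to Jon66Ci on arm 3L, had signals of 440, 279 and 297 in WT 25C and 686, 654 and 540 in S284Y 25C. At 30C it had 313, 327 and 277 in WT and 676, 294 and 383 in S284Y, so the groups overlapped there. Its log2 fold changes of S284Y against WT were 0.88 at 25C (limma adjusted p = 0.279) and 0.46 at 30C (limma adjusted p = 0.733), against 3.68 and 3.50 for Jon66Ci. In the Jon25B cluster on 2L, the third gene, Jon25Biii, had a value of -0.02 at 30C (limma adjusted p = 0.992), against -1.59 for Jon25Bi and -0.88 for Jon25Bii. In the trypsin cluster on 2R, kappaTry beside lambdaTry (-1.53, limma adjusted p = 0.221) and etaTry beside thetaTry (-0.99, limma adjusted p = 0.205) had negative values at 30C, while alphaTry on the other side of thetaTry had a positive one (0.89, limma adjusted p = 0.406); none of these passed. The probe set of Jon99Fii, next to Jon99Fi on 3R, is of a type shared within a gene family, so its signal (-0.68 at 30C, limma adjusted p = 0.541) cannot be assigned to that gene alone.

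Of the 17 other Jonah and trypsin genes measured, 0 passed for genotype at 25C (limma; 0.788% of all probe sets passed in either direction) and 0 at 30C (1.53%). At an unadjusted p under 0.05 there were 6 of the 17 at 25C (13.9% of all probe sets) and 6 at 30C (11%). Their median log2 fold change was 0.42 at 25C, with 13 positive and 4 negative, and -0.02 at 30C, with 8 positive and 9 negative. The 7 Jonah and trypsin genes described above are not among the 17, and they were set apart with their values known. At 25C all 3 S284Y signals were above WT for 6 of the 17 (7.53% of all probe sets) and below for 0 (7.15%). At 30C they were below for 6 (13.3%) and above for 4 (14.8%). The count at 30C depended on the arrays in the fit: 6 of the 17 passed with only the 30C arrays (7.92% of all probe sets) and 8 without arrays 2 and 3 of S284Y 25C (9.15%). The latter fit gave the 8 values that follow. The higher ones were betaTry (1.20, adjusted p = 3.39e-05), Jon65Aiv (1.83, adjusted p = 0.0408) and alphaTry (0.89, adjusted p = 0.0421). The lower ones were Jon99Ci (-0.83, adjusted p = 0.000244), kappaTry (-1.53, adjusted p = 0.00176), zetaTry (-1.18), Jon74E (-0.53) and the family-shared probe set of Jon99Fii (-0.68), which cannot be assigned to that gene alone. These 8 were named after their values were seen. betaTry, which encodes a trypsin, had signals of 12841, 13426 and 13664 in WT 30C and 32456, 31429 and 28245 in S284Y 30C, opposite in direction to thetaTry and lambdaTry. In WT 25C its signals were 19897, 19335 and 16622, and in S284Y 25C 32140.5, 91722 and 35548 (1.34, limma adjusted p = 0.0722). Like Jon66Ci, betaTry was thus above WT on every S284Y array at both temperatures. In the temperature average 16 of the 17 values were negative (median -0.55) and 1 gene passed, Jon65Ai (-0.92, limma adjusted p = 0.0409), a call lost in 12 of 21 alternatives. At an unadjusted p under 0.05 (limma) there were 10 of the 17 in this average. The share of all probe sets at that threshold was not counted.

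Other serine proteases gave the following. Among 5 other gut peptidases, Phae2, a serine protease gene, was lower in S284Y at 30C (-1.41, limma adjusted p = 0.0112), and Ser6 was lower at 30C in the temperature average (-1.10, limma adjusted p = 0.0287). The call of Phae2 was lost in 5 of 22 alternatives and that of Ser6 in 12 of 21. For Phae2 leaving out array 1 or 2 of WT 30C gave an adjusted p of 0.0730 and 0.0737, and leaving out array 1, 2 or 3 of S284Y 30C gave 0.0538, 0.0507 and 0.0528. At 25C 0 of the 5 passed for genotype (limma). At an unadjusted p under 0.05 (limma) there was 1 of the 5 at 25C (13.9% of all probe sets) and 2 at 30C (11%). Among 12 proteases of clip-domain and related cascades, which act in immunity and embryonic patterning, 0 passed for genotype at 25C or 30C (limma). At an unadjusted p under 0.05 (limma) there was 1 of the 12 at 25C (13.9% of all probe sets) and 3 at 30C (11%). One of them, SPE, the protease that processes the Toll ligand Spätzle, was lower at 30C in the temperature average (-0.83, limma adjusted p = 0.0284; lost in 11 of 21 alternatives). The medians of the 12 were -0.32 at 25C and -0.63 at 30C for genotype.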

How the data were processed

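RNA of whole flies was measured on 12 one-colour arrays. The deposited values are intensity, linear signals per probe set; the steps the authors took to make them are not stated in the labels or headers. Each array had a 2% trimmed mean of 1000.12 to 1000.18, so they had been scaled before deposit and were not normalized again. Of 14010 probe sets, 44 controls were left out and 13966 tested; 12443 carry 1 gene symbol, 327 several and 1196 none, and 12394 of the 12443 were matched to current names by Entrez number. The array annotation and RefSeq (Release 6) gave names only.

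Values were transformed as log2(signal + 16) and fitted with limma 3.58.1 in R 4.3.3 (4 group means, all 12 arrays, eBayes with trend, prior degrees of freedom 4.83), with Benjamini-Hochberg adjustment over all tested probe sets and a two-sided threshold of 0.05. Detection calls were not used, and the number of arrays limits precision. Groups of 3 were taken from the titles.

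The 8 genes and the gene lists were chosen with earlier results of these data known. Named besides the 8 were, per list and comparison, up to 4 passing genes with the lowest adjusted p, and for each of the 8 the 2 other genes of highest Pearson r among those with a mean log2 value at or above the 40th percentile, 8.3. Alternatives were other offsets, a filter on dim probe sets, quantile and median scaling, eBayes without trend, a replicate block, only the arrays compared, WT 30C array 1 moved, and arrays left out. Same-numbered arrays did not deviate together (0 of 18 pairs with r over 0.1). Sequences were not used here.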

Additional observations from a re-analysis of the deposited data

Results flagged for a closer look

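Jon99Fi and Jon25Bii were above WT on every S284Y array at 25C and below WT on every S284Y array at 30C. The difference between the log2 fold changes, 30C minus 25C, was -1.84 for Jon99Fi and -1.21 for Jon25Bii; it was not tested, because these genes were chosen with the differences between genotypes known. Over all probe sets, 56 of 13966 (0.401%) had the same order of groups.

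Outside the comparisons above, 3 probe sets carry both symbols Jon99Cii and Jon99Ciii, so their signal cannot be assigned to either gene. For the first the S284Y 30C signals were 27114, 28733 and 50070 against 129, 216 and 2084 in WT 30C, a log2 fold change of 6.36 (limma adjusted p = 0.00728). For the second they were 15245, 23292 and 39723 against 496, 68.3 and 3651, a log2 fold change of 5.48 (limma adjusted p = 0.0348). For the last, signals were 28313, 28720 and 31657 against 28250, 31453 and 31623 (-0.04, limma adjusted p = 0.983), so probe sets of the same genes disagreed. At 25C the first had 15757, 210803 and 23088 in S284Y against 1663, 9310 and 2937 in WT (3.57, limma adjusted p = 0.164). The second had a value of 2.88 there (limma adjusted p = 0.31) and the last 0.27 (limma adjusted p = 0.633). In WT the log2 fold change of 30C against 25C was -3.12 for the first, -3.27 for the second and -0.47 for the last.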

How the results depend on the processing

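The signs of the differences between genotypes were kept in every alternative run for all 8 genes at 30C and for Jon66Ci, Jon99Fi, Jon25Bii, Jon44E and Ser12 at 25C. At 25C they turned for Jon25Bi (-0.70 to 0.28), lambdaTry (-0.34 to 0.02) and thetaTry (-0.13 to 0.17). In the temperature average the number of the 8 genes that passed was 5, and 2 under median centring, eBayes without trend and the replicate block, 1 with WT 30C array 1 moved to 25C, and 2 to 5 when single arrays were left out: 2 without S284Y 30C array 1, 2 or 3, WT 25C array 1 or 2, or WT 30C array 1, 2 or 3, and 3 without WT 25C array 3. Ser12 changed sign with offset 1 (0.0443), quantile normalization (0.0936) and both arrays 2 and 3 of S284Y 25C left out (0.0718), and ran from -0.2117 to 0.2107 with single arrays left out; it passed in none of its 20 alternatives. Of the 17 other genes, 0 passed at 25C, against 1 under quantile normalization, median centring or without arrays 2 and 3 of S284Y 25C together, 2 with the array moved and 0 to 3 with single arrays left out. At 30C 0 passed, against 1 under quantile normalization, 6 with only the arrays compared, 8 without those arrays together, and 0 to 3 with single arrays left out. In the temperature average 1 passed, against 0 under median centring, eBayes without trend, the replicate block or the moved array, 3 without those arrays together, and 0 to 4 with single arrays left out.

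Over all probe sets 110, 213 and 354 passed at 25C, at 30C and in the temperature average, and over the alternatives 17 to 885, 82 to 1278 and 7 to 1741; the 17 came with only the arrays compared, which gave 1106 at 30C, the 7 with WT 30C array 1 moved to 25C, and the replicate block gave 131 for the temperature average. The replicate numbers did not pair the arrays (r of deviations -0.13 to 0.06 over 18 pairs). The causes of these changes were not tested. A fit of only the arrays compared could not be made for the temperature average, which uses all 12, and second probe sets were not run because each of these 25 genes has 1. The dim filter left out Ser12.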
